A study of Homo sapiens with 8 samples.

Results

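Glucose was withdrawn from glioblastoma cells that lack thioredoxin reductase 1 (TrxR1), and their mRNA was compared with that of the same knockout cells in regular medium. The cells were LN229-TAZ(4SA), human glioblastoma cells of the established line LN229 whose name carries a TAZ(4SA) construct; knockout and control cells share it. The members are the 4 knockout libraries of 8 in all, chosen by their labels: 2 from regular medium and 2 from glucose-deprived medium. Another 4 libraries, 2 in each medium, came from the control cells, labelled EV. They show where the knockout response differs. They also enter the filter on low values and the estimate of spread behind the knockout p-values. All cells were grown in DMEM with 10% fetal bovine serum. The labels give neither the length of the deprivation, nor what the deprived cells were fed in place of glucose, nor the number of knockout clones, so what else sets knockout cells apart from EV cells cannot be told apart from the loss of TrxR1. The glucose-deprived columns of the table end in GlcN. That suffix was read as the labels' Glu- condition, but it is also the usual short form of glucosamine. Within a group the letters a and b are names for the libraries and no more, and nothing says that they came from separate cultures. The p-values therefore measure the spread between these libraries, which may be technical.

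TrxR1, the product of TXNRD1, uses NADPH to keep thioredoxin reduced, and reduced thioredoxin in turn repairs oxidised protein thiols. Much of a tumour cell's NADPH comes from glucose through the pentose phosphate pathway, and glucose also supplies ATP and the sugars of N-linked glycans. Cells that lose glucose are known to switch on the integrated stress response, in which kinases that sense the ER, amino acids or redox state phosphorylate eIF2, slow translation and raise ATF4. They are also known to switch on the unfolded protein response of the ER, and to lose the glucose-induced mRNA of TXNIP, a protein that binds thioredoxin and limits glucose uptake.

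Levels are given in CPM, each gene's reads relative to the library's effective total, and they are compared only within a gene, since CPM is not corrected for length. The knockout libraries held 83113605 and 87361150 reads in regular medium and 107229069 and 86833153 without glucose, summed over the genes of the table, and the 8 libraries ranged from 70083018 to 107229069. A read was thus worth at most 0.0143 CPM, and counting error was small for most of the genes named. It was larger at the lowest levels, such as that of NMRAL2P in regular EV cells. Elsewhere the spread between libraries set the error. The median absolute log2 difference between libraries a and b was 0.072 in deprived and 0.078 in regular knockout cells, against 0.046 and 0.038 in EV cells. In knockout cells this difference went with the GC content of the genes, with a correlation across 12784 genes of 0.41 in deprived and -0.52 in regular medium, against -0.12 and -0.014 in EV cells; its part in the results was not tested beyond removing the trend, as given under the dependence on processing. Of the glial genes that mark the line, the intermediate filament nestin (NES) and SOX2 were well expressed, whereas the mean of GFAP lay below the filter on low values. Among markers of other cell types, few leukocyte and endothelial genes were listed, but most fibroblast and pericyte genes were. Of 10 leukocyte genes 3 were listed, with a summed level of 26.3 to 27.2 CPM in regular and 46.3 to 50.7 CPM in deprived knockout cells, most of it CD68, which also marks lysosomes. Of 8 endothelial genes 1 was listed, ESAM, at 4.64 to 4.71 CPM in regular and 2.26 to 2.31 CPM in deprived cells. Of 7 neuron genes 4 were listed, with sums of 37.0 to 37.4 and 70.5 to 70.6 CPM, and of 8 fibroblast and pericyte genes 7, with sums of 353 to 399 and 364 to 374 CPM. Their part in the results was not tested; the defining genes PTPRC, CD3E, PECAM1 and VWF were not analysed here.

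TXNRD1 itself was read at 263 and 261 CPM in EV cells and at 245 and 249 CPM in knockout cells, both in regular medium. The labels do not say which part of the gene was altered, and a small deletion can leave the mRNA in place. This level therefore does not check the knockout. Without glucose TXNRD1 rose in knockout cells to 370.4 and 351 CPM, a log2 fold change of 0.54 ± 0.036 (standard error, SE). In EV cells it reached 509 and 493 CPM and a log2 fold change of 0.94. The rise in knockout cells was smaller by -0.39 on the log2 scale (adjusted p = 0.00247).

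The response of the knockout cells was broad. Of 13057 genes tested with limma's linear model, 4766 were higher (36.5%) and 4806 lower (36.8%) without glucose at a Benjamini-Hochberg adjusted p under 0.05, together 9572 genes or 73.3%. A gene is called here when it passed that threshold. The median log2 fold change over all genes was -0.0015, with quartiles of -0.30 and 0.33, and the median SE was 0.055. Large changes were mostly rises: 738 genes were called and at least 2-fold higher (5.65%) against 281 at least 2-fold lower (2.15%), together 1019 or 7.8%. At 4-fold the counts were 132 and 15, and at 8-fold 39 and 2. A rise of 32-fold or more was reached by 2 genes, the inducible chaperone HSPA6 and the stress cytokine GDF15. These shares are the background against which the counts of each gene group below are read, beside the all-gene median of -0.0015.

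**Figure D1:**
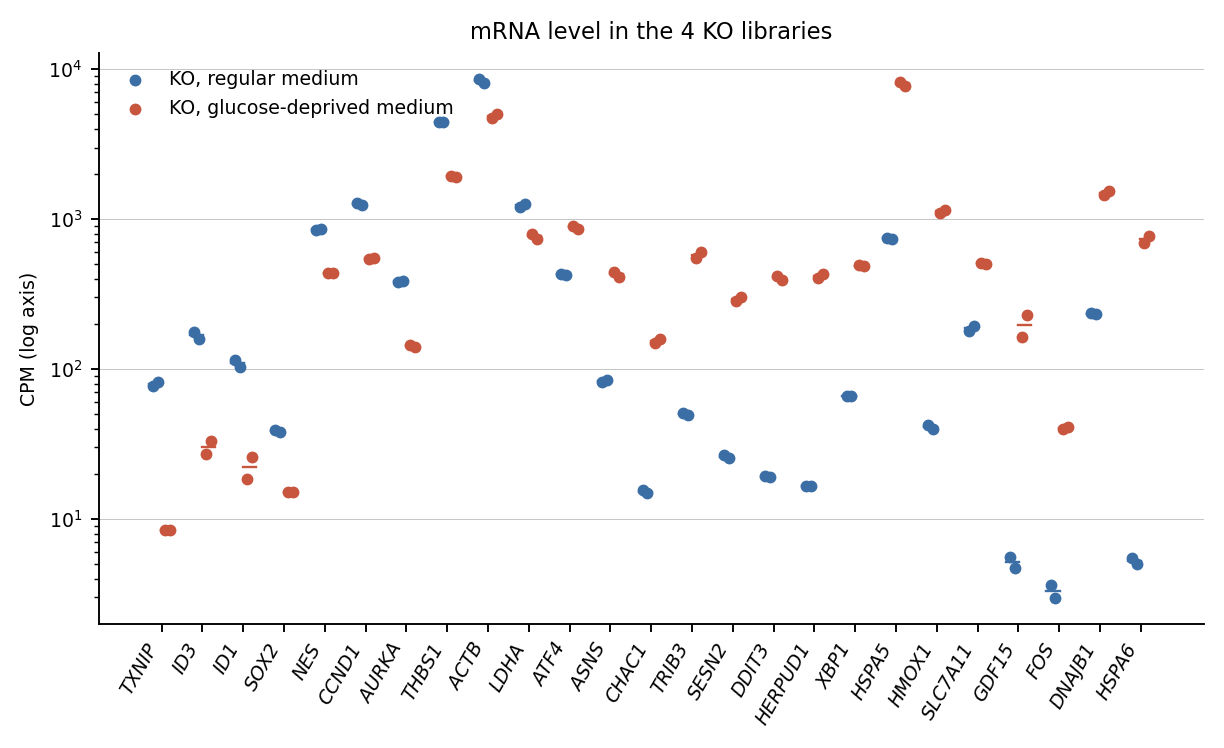
CPM on a log axis of selected stress and glucose-response genes in each of the 4 knockout libraries, with blue points for regular and red points for glucose-deprived medium and a bar at the mean of each pair. For each gene drawn, the deprived libraries lie apart from the regular ones, as they do for 83.6% of all tested genes. HSPA6 moved from 5.53 and 5.03 CPM to 693 and 775 CPM, and TXNIP from 77.3 and 81.9 to 8.46 and 8.43 CPM.

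Single genes are named here by a rule that takes, among others, the largest called changes with a mean of at least 10 CPM in the higher group. Such genes also had to show no overlap between the media in knockout cells, so non-overlap is set in advance for them. By that rule the largest fall was that of TXNIP, the arrestin-like inhibitor of thioredoxin. It was at 77.3 and 81.9 CPM in regular medium and 8.46 and 8.43 CPM without glucose. The deprived libraries lay below the regular ones by 9.40-fold, a log2 fold change of -3.23 ± 0.057 (adjusted p = 1.68e-11). The sister arrestin ARRDC4 fell as well, from 6.12 and 6.66 CPM to 3.01 and 2.50 CPM (-1.21 ± 0.12). Both are textbook targets of the glucose sensor MondoA. ARRDC3, an arrestin that sorts membrane receptors, went the other way and rose from 18.1 and 18.7 CPM to 49.1 and 47.5 CPM (1.39 ± 0.048). Of the 10 tested genes of this group, 3 were higher and 7 lower, with a median log2 fold change of -0.23. PFKFB3, which makes the activator of phosphofructokinase, fell by 0.41 on the log2 scale, and its sister PFKFB4 rose by 0.31.

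The stretch before the TXNIP start is shown because it holds the carbohydrate response element through which glucose acts on this gene, a pair of E-box-like boxes. The sequence is RefSeq's for chr1:145996601-145996829 of GRCh38.p14 on the minus strand, 5′ to 3′, up to the outermost GENCODE exon; capitals mark the element, found as 2 copies of CACGNG with 5 bases between them, on either strand (N stands for any base), and starting at -88 from the RefSeq start.
TXNIP: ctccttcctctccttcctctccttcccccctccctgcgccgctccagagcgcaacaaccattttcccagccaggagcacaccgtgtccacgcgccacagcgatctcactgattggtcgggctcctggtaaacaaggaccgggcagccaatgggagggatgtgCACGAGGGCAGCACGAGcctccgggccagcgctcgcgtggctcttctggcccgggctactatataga
The element was rare: 20 of the 27305 promoter windows in the RefSeq table (0.0732%), each from 250 bases before to 50 after the start, held a match. So did 16 of the 10461 tested genes that have such a window (0.153%), and their median log2 fold change was 0.19. The window of ARRDC4 held no match.

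Genes of the ATF4 and CHOP axis rose almost without exception. Of 42 tested targets of these factors, 41 were higher and 1 was lower; 33 rose at least 2-fold, and the group's median log2 fold change was 1.70. Among the bZIP transcription factors of stress and their regulators, 8 of 12 rose, all 8 of them at least 2-fold. ATF4, the factor at the head of the pathway, is raised chiefly through translation. Its mRNA was at 430.2 and 426 CPM in regular medium and 896 and 862 CPM without glucose (1.04 ± 0.034). DDIT3 encodes CHOP, the partner of ATF4 that ties lasting ER stress to cell death. It was at 19.3 and 18.98 CPM in regular medium and 419 and 393 CPM without glucose, a 21.2-fold rise (4.41 ± 0.042, adjusted p = 3.67e-13). The libraries of each medium agreed closely and the media did not overlap, as in 83.6% of all tested genes. DDIT3 shares exon sequence with MARS1 and MBD6 on the other strand, and the library kit does not mark strand, so that reads from the shared stretches may belong to either gene.

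Regulators within these groups include TRIB3, PPP1R15A and SESN2. TRIB3, a pseudokinase that restrains ATF4 and AKT, went from 50.98 and 49.4 CPM to 554 and 602 CPM (3.52 ± 0.045). CHAC1, which breaks down glutathione, rose from 15.5 and 14.8 CPM to 150.0 and 158 CPM (3.34 ± 0.048). PPP1R15A, the phosphatase subunit GADD34 that reverses eIF2 phosphorylation, was at 163 and 157 CPM in regular medium and 786 and 806 CPM without glucose (2.32 ± 0.039). SESN2, a leucine sensor that restrains mTORC1, rose by 3.50 on the log2 scale and ATF3, a stress-induced repressor, by 2.75. ATF5, another bZIP factor of the pathway, went the other way and fell by 1.07 on the log2 scale; it overlaps NUP62 and IL4I1. CEBPA, a factor of myeloid and fat cells, stood low and fell from 3.31 and 2.94 CPM to 2.18 and 2.08 CPM.

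Genes of amino acid supply were among the ATF4 and CHOP targets that rose. ASNS, which makes asparagine from aspartate and glutamine, was at 81.6 and 83.9 CPM in regular medium and 445 and 414 CPM without glucose, 5.19-fold higher (2.38 ± 0.042). CTH, the enzyme that makes cysteine from cystathionine, rose from 3.11 and 4.06 CPM to 56.3 and 55.6 CPM, 15.7-fold. SLC7A11, the cystine importer, rose from 179.8 and 194 CPM to 509.5 and 503 CPM, and SLC3A2, its heavy chain, from 481 and 447 CPM to 1029 and 1139 CPM. From other lists, PCK2, which makes phosphoenolpyruvate in mitochondria, rose by 2.49, and GOT1, the cytosolic aspartate transaminase, by 1.09. ALDH18A1, which starts proline synthesis, was the ATF4 and CHOP target that fell, by 0.16 on the log2 scale.

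Enzymes that charge tRNAs with amino acids are counted by compartment. Of 19 cytosolic aminoacyl-tRNA synthetases 14 were higher and 4 lower (median 0.45), and 6 rose at least 2-fold. WARS1 led at 112 and 107 CPM in regular medium and 549 and 515 CPM without glucose (2.28 ± 0.043), followed by AARS1 at 2.21, SARS1 at 1.4 and GARS1 at 1.23 on the log2 scale. RARS1 and HARS1 fell by 0.39 and 0.28. Of 16 mitochondrial synthetases 4 were higher and 7 lower, the median was -0.018, and LARS2 fell by 0.55 while WARS2 rose by 0.65. The median lies near that of all genes, and 7 were higher with the trend on GC content removed from each library. The difference between the compartments was not tested.

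The element through which ATF4 acts with its C/EBP partners is shown for ASNS and CHAC1. Capitals mark TGATGNAA or its reverse complement. The matches start at -68 and -209 from the RefSeq start. The sequences are chr7:97872458-97872487 on the minus strand and chr15:40953251-40953280 on the plus strand of GRCh38.p14, each kept to 30 bases because GENCODE places an exon of another transcript there.
ASNS: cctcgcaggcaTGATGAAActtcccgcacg
CHAC1: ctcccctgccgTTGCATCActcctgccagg
A match stood in 1.67% of the promoter windows of tested genes, in 3.92% of the 587 windows of genes at least 2-fold higher, in 7.69% of the 104 at least 4-fold higher and in 2.87% of the 209 at least 2-fold lower. Over all windows in the table the share was 3.67%. The 175 tested genes with a match had a median log2 fold change of 0.15. Matches also stood in the windows of ATF3, GOT1, SLC3A2, HERPUD1 and AARS1, whereas those of DDIT3, SESN2 and TRIB3 held none.

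The ER arm was nearly as uniform. Of 27 ER chaperones and folding enzymes, 26 were higher and 1 lower, 16 rose at least 2-fold, and the median log2 fold change was 1.23. HSPA5, the ER chaperone BiP, is among the most abundant of them and the sensor that holds the unfolded protein response off. It was at 749.8 and 741 CPM in regular medium and 8152 and 7705 CPM without glucose. The 10.6-fold rise (3.41 ± 0.039, adjusted p = 9.88e-13) was about as large in either deprived library. DNAJB9, a co-chaperone of BiP, rose from 10.8 and 10.4 CPM to 126 and 134 CPM, MANF, a secreted factor that holds BiP on its clients, from 64.8 and 61.3 CPM to 338 and 341 CPM, and PDIA4, a disulfide isomerase, from 338 and 329 CPM to 1452 and 1462 CPM. CANT1, a nucleotidase, was the gene of the group that fell, by 0.63 on the log2 scale.

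Degradation from the ER and its sensors followed. Of 23 genes 18 were higher and 3 lower (median 0.74), and 8 rose at least 2-fold. HERPUD1, which assembles the degradation complex at the ER membrane, was at 16.6 and 16.6 CPM in regular medium and 403 and 428 CPM without glucose, a rise of 25.01-fold (4.64 ± 0.039) and the largest in the ER groups. XBP1, the factor that IRE1 activates by splicing, was at 65.98 and 66.6 CPM in regular medium and 491 and 486 CPM without glucose (2.88 ± 0.031); CPM per gene does not show its splicing. SEL1L, the scaffold of the HRD1 ligase, rose by 2.25 and EDEM1, which picks out misfolded glycoproteins, by 1.80. UBE2J2 and FAF2, further parts of the machinery, fell by 0.51 and 0.26.

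The sequences before HSPA5, XBP1 and HERPUD1 are shown because they hold the ER stress response elements bound by ATF6 and XBP1. Capitals mark the classical element in HSPA5 and XBP1, which is CCAAT and CCACG with 9 bases between them and starts at -66 and -52. In HERPUD1 they mark the second element, ATTGG and CCACG with 1 base between them, which starts at -117. Both were searched on either strand. The stretches are chr9:125241344-125241593 on the minus strand, chr22:28800598-28800682 on the minus strand and chr16:56931892-56932047 on the plus strand of GRCh38.p14, from RefSeq, without bases that GENCODE gives to an exon.
HSPA5: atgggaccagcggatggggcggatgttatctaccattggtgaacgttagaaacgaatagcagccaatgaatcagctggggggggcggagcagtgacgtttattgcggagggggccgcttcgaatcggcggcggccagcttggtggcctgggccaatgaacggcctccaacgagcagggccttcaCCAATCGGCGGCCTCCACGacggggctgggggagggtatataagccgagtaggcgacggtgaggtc
XBP1: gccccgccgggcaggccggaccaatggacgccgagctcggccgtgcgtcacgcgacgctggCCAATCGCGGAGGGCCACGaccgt
HERPUD1: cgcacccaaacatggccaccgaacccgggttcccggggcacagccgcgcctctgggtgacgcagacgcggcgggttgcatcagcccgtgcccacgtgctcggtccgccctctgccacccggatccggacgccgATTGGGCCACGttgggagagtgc
The classical element was present in 22 of 27305 windows (0.0806%) and in 14 tested genes (0.134%). It stood in 1.53% of the genes at least 2-fold higher, in 4.81% of those at least 4-fold higher and in 0 of the 209 at least 2-fold lower. Of the 14 genes, 13 were called higher and 0 lower, 9 of them at least 2-fold higher, and their median log2 fold change was 1.45, against -0.0060 for the 10447 without a match. Below HSPA5, at 3.41, came ERO1B at 3.30, which re-oxidises disulfide isomerases, XBP1, FICD at 2.40, which switches BiP off by AMPylation, CRELD2 at 2.06 and the ER chaperone HSP90B1 at 1.81, whose window has 2 sites. TRIM5 at 1.58, the lectin chaperone CALR at 1.32, SERP1 at 1.05, ALG12 at 0.92, TMEM120A at 0.90, CANX at 0.69 and EIF2A at 0.67 made up the other genes called. ZNF17, at 0.15, was not called (adjusted p = 0.0787). CRELD2 and ALG12 lie head to head and share a site, as do SERP1 and EIF2A, so these pairs are not independent. The second element was found in 12 tested genes with a median of 0.27. The windows of MANF, PDIA4 and SEL1L held no classical element.

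**Figure D2:**
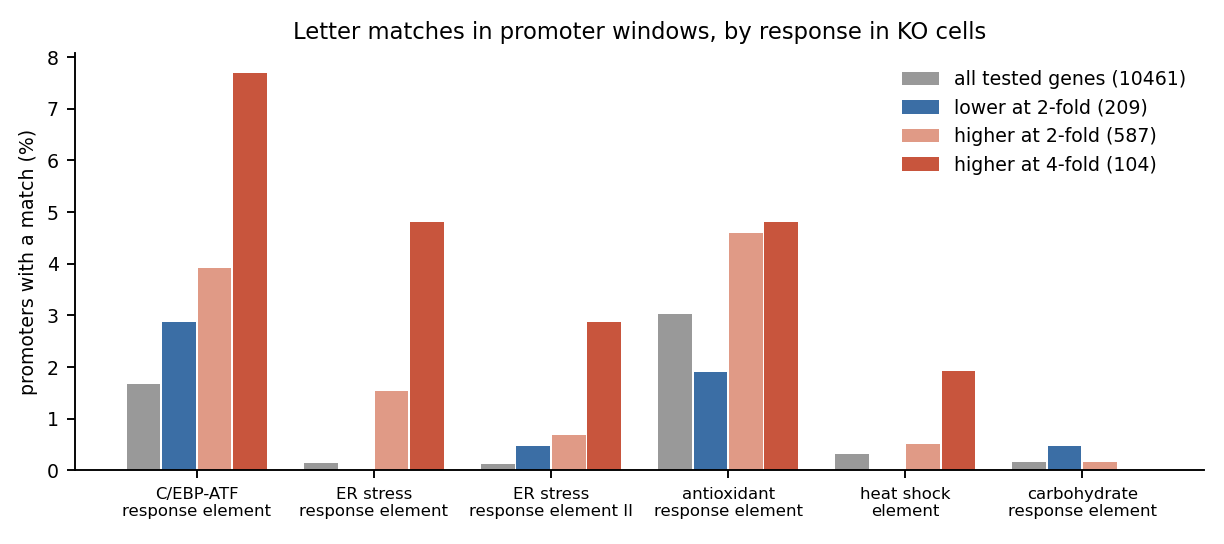
Percent of RefSeq promoter windows (250 bases before to 50 after the start) that hold a match to each of 6 elements, for all tested genes and for genes at least 2-fold lower, 2-fold higher and 4-fold higher without glucose in knockout cells. The classical ER stress element goes from 0.134% of tested genes to 4.81% of those at least 4-fold higher, and the ATF4 type element from 1.67% to 7.69%.

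The sugar precursors of N-glycans, which are built from glucose, changed in a graded way. Of 24 genes for amino sugars and glycan precursors, 14 were higher, 6 lower and 4 at least 2-fold higher (median 0.28). GFPT1, the rate-limiting enzyme of hexosamine synthesis, was at 78.3 and 86.5 CPM in regular medium and 302 and 289 CPM without glucose (1.84 ± 0.051). PGM3, in the same pathway, rose by 1.04, and GMPPB, which makes GDP-mannose, by 1.14. UAP1, the last enzyme of the hexosamine route, fell by 0.42 and the glucosyltransferase ALG8 by 0.76.

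A few heat shock genes had large rises. Of 23 tested cytosolic chaperones and co-chaperones, 8 were higher and 10 lower, 5 rose at least 2-fold, and the median was -0.11; the shares higher and lower lie near those of all genes. HSPA6, an HSP70 that human cells make almost only under stress, had the largest rise of all genes tested. It was at 5.53 and 5.03 CPM in regular medium and 693 and 775 CPM without glucose, a 138-fold rise (7.11 ± 0.077, adjusted p = 6.26e-13). HSPA6 is close in sequence to the HSPA1A and HSPA1B genes, not analysed here, and its level is uncertain where reads could be shared. DNAJB1, the HSP40 partner of HSP70, was at 238 and 231 CPM in regular medium and 1447 and 1532 CPM without glucose (2.67 ± 0.037). BAG3, which hands HSP70 clients to autophagy, rose from 125 and 118 CPM to 417 and 435 CPM, and HSPH1, the HSP110 exchange factor, from 354 and 359 CPM to 712 and 753 CPM. In contrast, the constitutive HSP70 HSPA8, chosen here after its values were seen, fell from 3313 and 3381 CPM to 1995 and 1885 CPM (log2 fold change -0.79). DNAJB1 shares exon sequence with TECR.

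The HSPA6 promoter is shown because it holds inverted repeats of the heat shock element bound by HSF1. Capitals mark 3 blocks that alternate between TTC and GAA with 2 bases between blocks, searched in either order and on either strand and starting at -74; the stretch is chr1:161524290-161524539 on the plus strand of GRCh38.p14, from RefSeq.
HSPA6: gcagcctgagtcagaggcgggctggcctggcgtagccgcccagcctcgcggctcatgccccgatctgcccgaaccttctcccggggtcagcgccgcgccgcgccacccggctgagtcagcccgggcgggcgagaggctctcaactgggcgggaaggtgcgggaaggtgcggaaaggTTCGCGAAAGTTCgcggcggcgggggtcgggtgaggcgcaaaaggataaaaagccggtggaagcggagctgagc
A match of this kind was in 0.315% of the windows of tested genes, 0.511% of those at least 2-fold higher and 1.92% of those at least 4-fold higher, that is in 33, 3 and 2 windows. The window of DNAJB1 held no match.

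In most heat shock genes the knockout response differed from that of the control cells. The difference between the knockout and the EV response, the interaction of the same linear model, was called in 563 of 13057 genes (4.31%), of which 301 had the higher response in knockout cells (2.31%) and 262 the lower (2.01%). That count moved with the libraries: it was 1579 without knockout deprived library a, 368 without knockout deprived library b and 147 to 183 without any 1 of the EV libraries. Of the 23 heat shock genes, 20 had a higher response in knockout cells and 0 a lower one, and leaving out any 1 of the 8 libraries gave 18 to 20. The median log2 fold change was -0.66 in EV against -0.11 in knockout cells. HSPA6 rose more in knockout cells by 2.24 ± 0.11 (adjusted p = 2.44e-06), since it went only from 2.96 and 2.88 CPM to 92.8 and 80.3 CPM in EV cells. DNAJB1 exceeded the EV response by 1.84 ± 0.052, HSPH1 by 1.63 ± 0.048 and BAG3 by 1.32 ± 0.059. HSPH1 rose in knockout cells but was at 343 and 341 CPM in regular and 227 and 228 CPM in deprived EV cells. The mitochondrial chaperonin HSPD1, which is in another list, had a log2 fold change of 0.17 in knockout and -0.28 in EV cells, a difference of 0.45 ± 0.06.

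**Figure D3:**
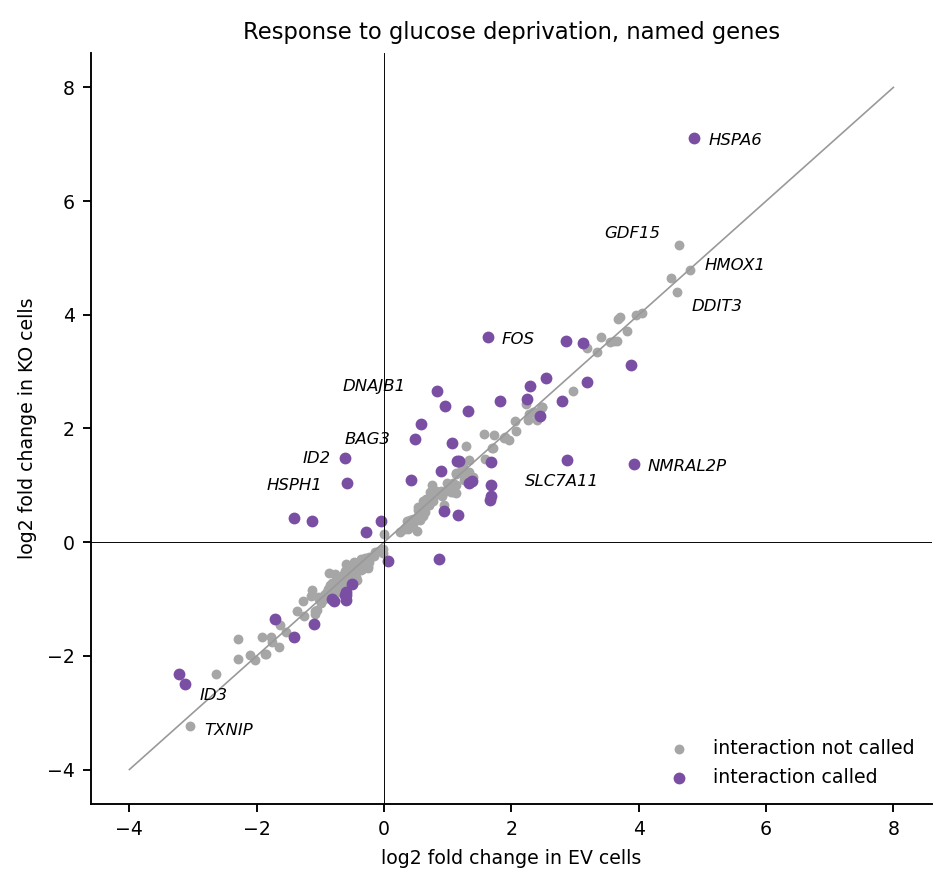
Log2 fold change without glucose in knockout cells (vertical axis) against that in EV cells (horizontal axis), a point for each named gene, in purple where the difference between the responses was called. The diagonal marks equal responses; HSPA6 lies above it, at 7.11 and 4.88, and SLC7A11 lies below it, at 1.44 and 2.87.

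Targets of NRF2, the factor that electrophiles and oxidants release from KEAP1, rose without glucose. Of 35 tested, 30 were higher and 2 lower, 8 rose at least 2-fold, and the median was 0.54. HMOX1, which breaks down haem and answers also to haem itself, was at 42.3 and 39.7 CPM in regular medium and 1104 and 1154 CPM without glucose, 27.5-fold higher (4.78 ± 0.049). The autophagy receptor SQSTM1 rose from 573 and 548 CPM to 1538 and 1537 CPM and UGDH, which makes UDP-glucuronate, from 47.3 and 49.5 CPM to 128 and 125 CPM. PRDX1, the abundant peroxiredoxin that thioredoxin recharges, was an exception and fell from 446 and 465 CPM to 305 and 302 CPM, as did the carbonyl reductase CBR1 by 0.45 on the log2 scale.

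The response of this pathway was smaller than in EV cells for part of the genes. The group's median was 0.54 against 0.82 in EV cells, and 8 of 35 genes had a lower response in knockout cells with 0 higher; leaving out 1 library gave 6 to 9 lower. SLC7A11 stood at 179.8 and 194 CPM in regular knockout cells against 48.2 and 49.3 CPM in EV cells. Without glucose it was at 509.5 and 503 CPM and 351 and 364 CPM, so that the knockout libraries were higher in both media while the rise was smaller. The knockout response was lower by -1.44 ± 0.058 on the log2 scale. Outside this list, NMRAL2P, a pseudogene of the NADPH sensor NMRAL1, had the lowest knockout response relative to EV among the named genes, with -2.55 ± 0.15: it went from 10.99 and 12.1 to 28.98 and 30.6 CPM in knockout cells and from 0.931 and 1.18 to 15.8 and 16.7 CPM in EV cells. Within it, TRIM16L and OSGIN1 differed by -0.92 and -0.85, and TRIM16, not in the list, by -0.68. TRIM16 and TRIM16L are near copies that may share reads, and SLC7A11 overlaps SLC7A11-AS1. For HMOX1 the difference was -0.026 ± 0.069 and not called (adjusted p = 0.858).

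The thioredoxin and glutathione systems moved less. Of 37 tested genes 18 were higher and 7 lower (median 0.12). GLRX, the cytosolic glutaredoxin that reduces disulfides with glutathione, rose from 3.80 and 3.66 CPM to 16.8 and 16.3 CPM (2.14 ± 0.068), and GCLC, the rate-limiting enzyme of glutathione synthesis, from 43.9 and 46.1 CPM to 86.1 and 82.6 CPM (0.91 ± 0.048). Among those that fell were GLRX5, a mitochondrial glutaredoxin used in iron-sulfur cluster assembly, by 0.64, and the mitochondrial reductase TXNRD2, by 0.72. Among 11 genes of the pentose phosphate pathway and NADPH supply, 6 rose and 3 fell. IDH1, the cytosolic isocitrate dehydrogenase that makes NADPH without glucose-6-phosphate, was at 40.9 and 44.5 CPM in regular medium and 117 and 114 CPM without glucose (1.43 ± 0.046). PGD, in the oxidative branch, rose by 0.37 and malic enzyme ME1 by 0.45, while RPIA, in the branch that makes ribose, fell by 0.58.

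Immediate early genes, the fast targets of growth factor and stress kinases, rose in knockout cells. Of 31 tested 23 were higher and 5 lower, 14 rose at least 2-fold, and the median was 0.64 against 0.057 in EV cells. A higher response in knockout cells was called for 15 of the 31 and a lower one for 2. The number higher was 11 to 20 when 1 library was left out. FOS, a subunit of AP-1, was at 3.63 and 2.99 CPM in regular medium and 39.6 and 41.4 CPM without glucose in knockout cells (3.61 ± 0.088) and moved from 3.91 and 4.11 CPM to 12.6 and 12.2 CPM in EV cells, a difference of 1.98 ± 0.12. DUSP1, a phosphatase that turns off p38 and JNK, was at 7.95 and 7.09 CPM in regular medium and 38.9 and 40.1 CPM without glucose and exceeded the EV response by 1.44 ± 0.095. RGS2, a brake on G-protein signals, rose from 8.37 and 8.64 CPM to 35.2 and 36.7 CPM, 1.5 above EV cells. FOSL2 and CCN1 fell by 0.42 and 0.34, and for CCN1 the knockout response was lower than that of EV cells by -0.40 ± 0.052.

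The ID genes, inhibitors of bHLH factors and usual targets of BMP signals, went in different directions. ID3 fell from 177 and 159.7 CPM to 26.97 and 33.2 CPM and ID1 from 115 and 104 CPM to 18.5 and 25.8 CPM, the largest falls after TXNIP by the naming rule. ID2 instead rose, from 13.3 and 13.8 CPM to 35.7 and 40.03 CPM (1.48 ± 0.066), whereas in EV cells it was at 15.6 and 16.4 CPM in regular medium and 10.1 and 10.8 CPM without glucose. The difference of 2.09 ± 0.094 for ID2 (adjusted p = 1.24e-06) was the second among higher knockout responses, after HSPA6, by the naming rule; ID2 overlaps ID2-AS1.

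**Figure D4:**
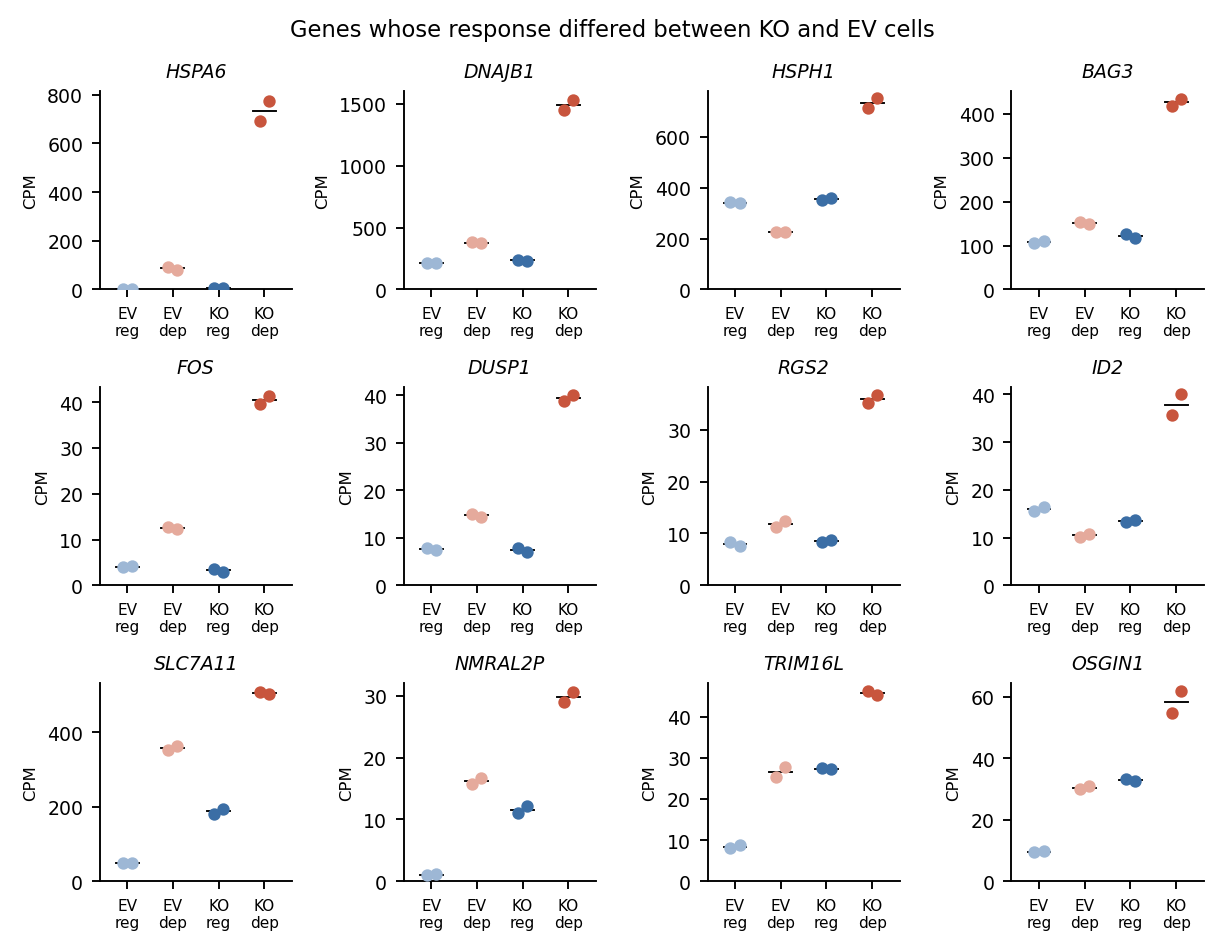
CPM in all 8 libraries, on linear axes from 0 with a bar at each mean, of 12 genes whose response to lack of glucose differed between knockout and EV cells. ID2 is higher without glucose in knockout cells and lower in EV cells; FOS, DUSP1, DNAJB1 and HSPH1 reach higher levels in the deprived knockout libraries than in the deprived EV libraries.

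Genes of glucose uptake and glycolysis were mostly lower, by small steps. Of 22 genes of glucose uptake and glycolysis 4 were higher and 13 lower, with a median of -0.16; with the trend on GC content removed from each library 7 were higher. The neuronal type transporter SLC2A3 rose from 5.06 and 5.10 CPM to 19.7 and 18.6 CPM (1.91 ± 0.062), whereas SLC2A1, the widely expressed transporter, rose by 0.28. HK2, the inducible hexokinase, was at 129.8 and 130.2 CPM in regular medium and 194 and 187 CPM without glucose (0.55 ± 0.036). LDHA, which turns pyruvate into lactate, fell from 1204 and 1265 CPM to 796 and 736 CPM (-0.69 ± 0.042) and enolase ENO1 by 0.38. Of 11 genes of gluconeogenesis and glycogen 6 were higher; besides PCK2, pyruvate carboxylase PC rose by 0.97 and phosphoglucomutase PGM1 by 0.52, while the glycogen synthase GYS1 fell by 0.75.

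Of the mitochondrial groups, the ribosomal proteins were the one in which most genes fell. Of 56 nuclear genes for oxidative phosphorylation 6 were higher and 28 lower (median -0.13), and of 53 mitochondrial ribosomal proteins 36 fell (median -0.23). ATP5MC1, a ring subunit of ATP synthase, was at 72.9 and 72.2 CPM in regular medium and 48.03 and 44.7 CPM without glucose (-0.65 ± 0.043). MRPS17 fell by 0.76 and MRPL20 by 0.60. Among 32 genes of pyruvate, the TCA cycle and glutamine, 14 were higher and 12 lower, shares near those of all genes. PDK4, which blocks the entry of pyruvate into the cycle, rose from 1.61 and 1.66 CPM to 7.90 and 8.54 CPM, 0.99 on the log2 scale more than in EV cells, whereas fumarase FH fell by 0.62. Of 14 mitochondrial chaperones and proteases 6 were higher and 4 lower (median 0.02), little different from the shares of all genes; the protease LONP1 rose by 1.04 and the mitochondrial HSP70 HSPA9 by 0.72.

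Some brakes on growth and most genes of self-digestion rose. DDIT4, the mTORC1 inhibitor REDD1, was at 64.2 and 59.6 CPM in regular medium and 329 and 368 CPM without glucose (2.49 ± 0.055), 0.67 ± 0.078 above the EV response. PRKAB2, a scaffold subunit of AMPK, rose by 1.17, and IRS1, which links the insulin receptor to PI3K, fell from 145 and 136 CPM to 53.9 and 60.2 CPM. Among 28 genes of this nutrient-sensing group 15 were higher and 7 lower. Of 41 genes for autophagy and lysosomes 25 rose, 5 of them at least 2-fold, and 6 fell, or 3 without knockout deprived library b. WIPI1, which builds the phagophore, was at 15.8 and 15.9 CPM in regular medium and 115 and 107 CPM without glucose (2.81 ± 0.051), and the ubiquitin-like GABARAPL1 and MAP1LC3B rose by 1.45 and 1.42. Lipid synthesis was mixed. Of 25 cholesterol genes 13 were higher and 6 lower, with HMGCS1 up by 0.77 and the carrier STARD4 by 1.89. In fatty acid synthesis 8 of 16 rose, ACSL1 by 0.82, and 6 fell, ACLY by 0.53. Over all genes 36.5% rose and 36.8% fell.

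Genes that build ribosomes fell broadly, by small steps. Of 46 genes for ribosome biogenesis and RNA polymerase I, 39 were lower and 0 higher, with a median of -0.38; without knockout deprived library b 1 was higher, and without knockout regular library b 2 were. MRTO4, a ribosome assembly factor, was at 144 and 147 CPM in regular medium and 78.6 and 78.3 CPM without glucose (-0.89 ± 0.038), and DKC1, which modifies rRNA, fell by 0.87. The ribosomal proteins themselves went the other way by small amounts: 41 of 74 cytosolic ones were higher (median 0.12), RPL3 by 0.46. Of 30 proteasome genes 21 were lower and 1 higher, with PSMD2 at -0.62.

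The cell cycle groups fell as well. Of 39 mitosis genes 33 were lower and 4 at least 2-fold lower (median -0.36), or 2 at 2-fold with the trend on GC content removed from each library. AURKA, a spindle kinase, was at 383 and 388 CPM in regular medium and 145 and 139 CPM without glucose (-1.44 ± 0.035). PLK1 fell by 1.02 and cyclin B1 (CCNB1) by 0.93. In mitosis genes the fall was steeper than in EV cells (median -0.19) by values that differed with the library: 16 of 39 were called in the interaction, against 25 without knockout deprived library a, 4 and 3 without EV deprived a and b, and 3 and 5 without EV regular a and b. It was 2 without a variance trend and 32 with the GC trend removed. For PLK1 the difference was -0.42 ± 0.054 and for AURKA -0.34 ± 0.05. Of 43 genes for DNA replication 30 fell and 4 rose. Here the fall was less steep than in EV cells, with a median of -0.27 against -0.40; the interaction was called higher in 5 genes and lower in 0, and its sign was positive in 38 of 43. The number higher was 12 without knockout deprived library a, 2 and 1 without EV deprived a and b, 1 without either EV regular library, 1 without a variance trend and 20 with the GC trend removed. UHRF1, which carries DNA methylation through S phase, fell from 224 and 215 CPM to 77.6 and 82.5 CPM, whereas CDC6, a licensing factor, rose from 109.9 and 113 CPM to 285 and 269 CPM (1.31 ± 0.041). In bulk libraries fewer cells in a phase and less mRNA per cell cannot be told apart.

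Most G1 regulators rose, whereas death regulators gave a mixed picture. Of 16 tested cell cycle brakes and G1 regulators 11 were higher and 4 lower, with a median of 0.41. At 2-fold 4 were higher and 1 lower. MXD1, which competes with MYC for MAX, was at 10.5 and 11.5 CPM in regular medium and 125 and 131 CPM without glucose (3.54 ± 0.052), 0.68 ± 0.074 above the EV response. CCND1, cyclin D1, fell from 1282 and 1249.5 CPM to 539 and 554 CPM and the kinase CDK6 by 0.76, while the CDK inhibitor CDKN1A rose by 0.73. Of 24 p53 targets 15 were higher and 6 lower. GDF15, which ATF4 and CHOP also drive, was at 5.58 and 4.73 CPM in regular medium and 164 and 228 CPM without glucose (5.23 ± 0.14), with deprived library b above a. GADD45A rose by 1.69 and the exonuclease AEN fell by 0.61. Of 24 BCL2 family and death receptor genes 12 rose and 10 fell, against 36.5% and 36.8% of all genes. The death receptor TNFRSF10B, a CHOP target, was at 178 and 177 CPM in regular medium and 291 and 296 CPM without glucose, and PMAIP1, the BH3-only protein NOXA, rose by 0.86. The survival factor BCL2L1 fell by 0.69, and so did BAK1, a pore former, by 0.87.

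The cytoskeleton and TAZ axis were lower. Of 26 YAP/TAZ targets 18 fell, 2 rose and the median was -0.36, in cells that all carry the TAZ(4SA) construct. CCN2, the best known of these targets, was at 127 and 130.3 CPM in regular medium and 67.8 and 68.03 CPM without glucose (-0.92 ± 0.037), and AMOTL2 fell by 0.81. The targets that rose were IGFBP3, at 1.96, and GADD45B, at 1.09. Of 39 genes of the WAVE complex and actin, 27 were lower and 5 higher (median -0.26). ACTB, beta-actin, fell from 8566 and 8049 CPM to 4711 and 5014 CPM, tropomyosin TPM1 by 0.99 and alpha-actinin ACTN1 by 0.68; the WAVE subunits WASF2 and ABI1 rose by 0.39 and 0.37. Of 10 tubulins 7 fell, TUBB6 by 0.93. ACTB and the tubulins have processed copies with which reads may be shared.

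Matrix, identity and signalling genes changed in part. THBS1, a matrix protein that TAZ also drives, fell from 4436 and 4410.1 CPM to 1940.0 and 1911 CPM (-1.20 ± 0.031), while THBS2 rose by 0.90. Of 35 matrix and integrin genes 15 were higher and 14 lower, shares near those of all genes. Of 14 tested glioma and glial identity genes 5 were higher and 7 lower, with a median of -0.12. At 2-fold 1 was higher and 2 lower, or 1 lower with a pseudocount of 1 CPM. SOX2, a neural stem cell factor, fell from 39.5 and 37.95 CPM to 15.1 and 15.2 CPM and NES from 846 and 860.3 CPM to 437 and 436 CPM. OLIG2, a factor of the oligodendrocyte lineage, instead rose from 6.54 and 6.33 CPM to 15.4 and 16.9 CPM. VEGFA, which draws in vessels and answers to ATF4 as well as to hypoxia, was at 51.3 and 49.8 CPM in regular medium and 259.9 and 265 CPM without glucose (2.38 ± 0.035). Of 23 hypoxia genes 15 rose and 6 fell, or 3 without knockout regular library b. Among 26 inflammatory genes 16 rose, 7 at least 2-fold, and 4 fell. PTGS2, the inducible cyclooxygenase, was at 2.52 and 2.73 CPM in regular medium and 41.4 and 38.4 CPM without glucose (3.92 ± 0.08), CXCL8, interleukin 8, rose from 55.4 and 59.1 CPM to 189 and 173 CPM, and IL11 fell by 0.84. NFKBIZ rose by 1.74, 0.67 ± 0.082 above EV cells.

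Smaller groups completed the picture. Of 22 interferon and antigen presentation genes 13 rose and 3 fell, IRF1 at 0.87 and OAS3 at -0.30. Of 18 clock genes 11 rose and 4 fell, with NFIL3 at 9.13 and 8.95 CPM in regular medium and 53.1 and 51.3 CPM without glucose and NR1D1 up by 1.00. The hosts of small nucleolar RNAs, whose spliced RNAs nonsense-mediated decay removes, split into 8 higher and 8 lower of 18, shares near those of all genes. At 2-fold they did not: 4 of the 18 were lower and 0 higher, against 2.15% and 5.65% of all genes. With a pseudocount of 1 CPM 2 were lower at 2-fold. SNHG3 was at 129.8 and 127 CPM in regular medium and 41.8 and 39.02 CPM without glucose and SNHG4 fell by 1.59; SNHG3 shares exons with RCC1. SYT1, a synaptic vesicle protein in the neuron marker list, rose from 14.7 and 15.8 CPM to 48.7 and 47.6 CPM.

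Several of the largest changes lay outside all of these groups. BEST1, a chloride channel that overlaps the ferritin gene FTH1, was at 1.00 and 0.867 CPM in regular medium and 14.8 and 16.4 CPM without glucose (4.03 ± 0.099). FRY, LURAP1L, SH3BGR and the antisense transcript SLCO4A1-AS1 rose by 3.99, 3.71, 3.54 and 3.54 on the log2 scale, each from under 4 CPM in regular medium. SLCO4A1-AS1 cannot be told apart from SLCO4A1 without strand. Among the falls, RHOJ, a GTPase of the CDC42 type, was at 84.6 and 85.2 CPM in regular medium and 21.2 and 22.04 CPM without glucose (-1.97 ± 0.04). The long noncoding RNA LINC00707 fell from 58.5 and 59.2 CPM to 15.2 and 14.8 CPM, the muscle type genes MYPN and NEXN by 2.07 and 1.75, and NOXO1, which organises an NADPH oxidase, from 20.9 and 19.1 CPM to 3.58 and 4.43 CPM. DOK3, PGAM2, ATOH8, AMH, EVA1A and WNT5B fell by 1.67 to 2.06 on the log2 scale.

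**Figure D5:**
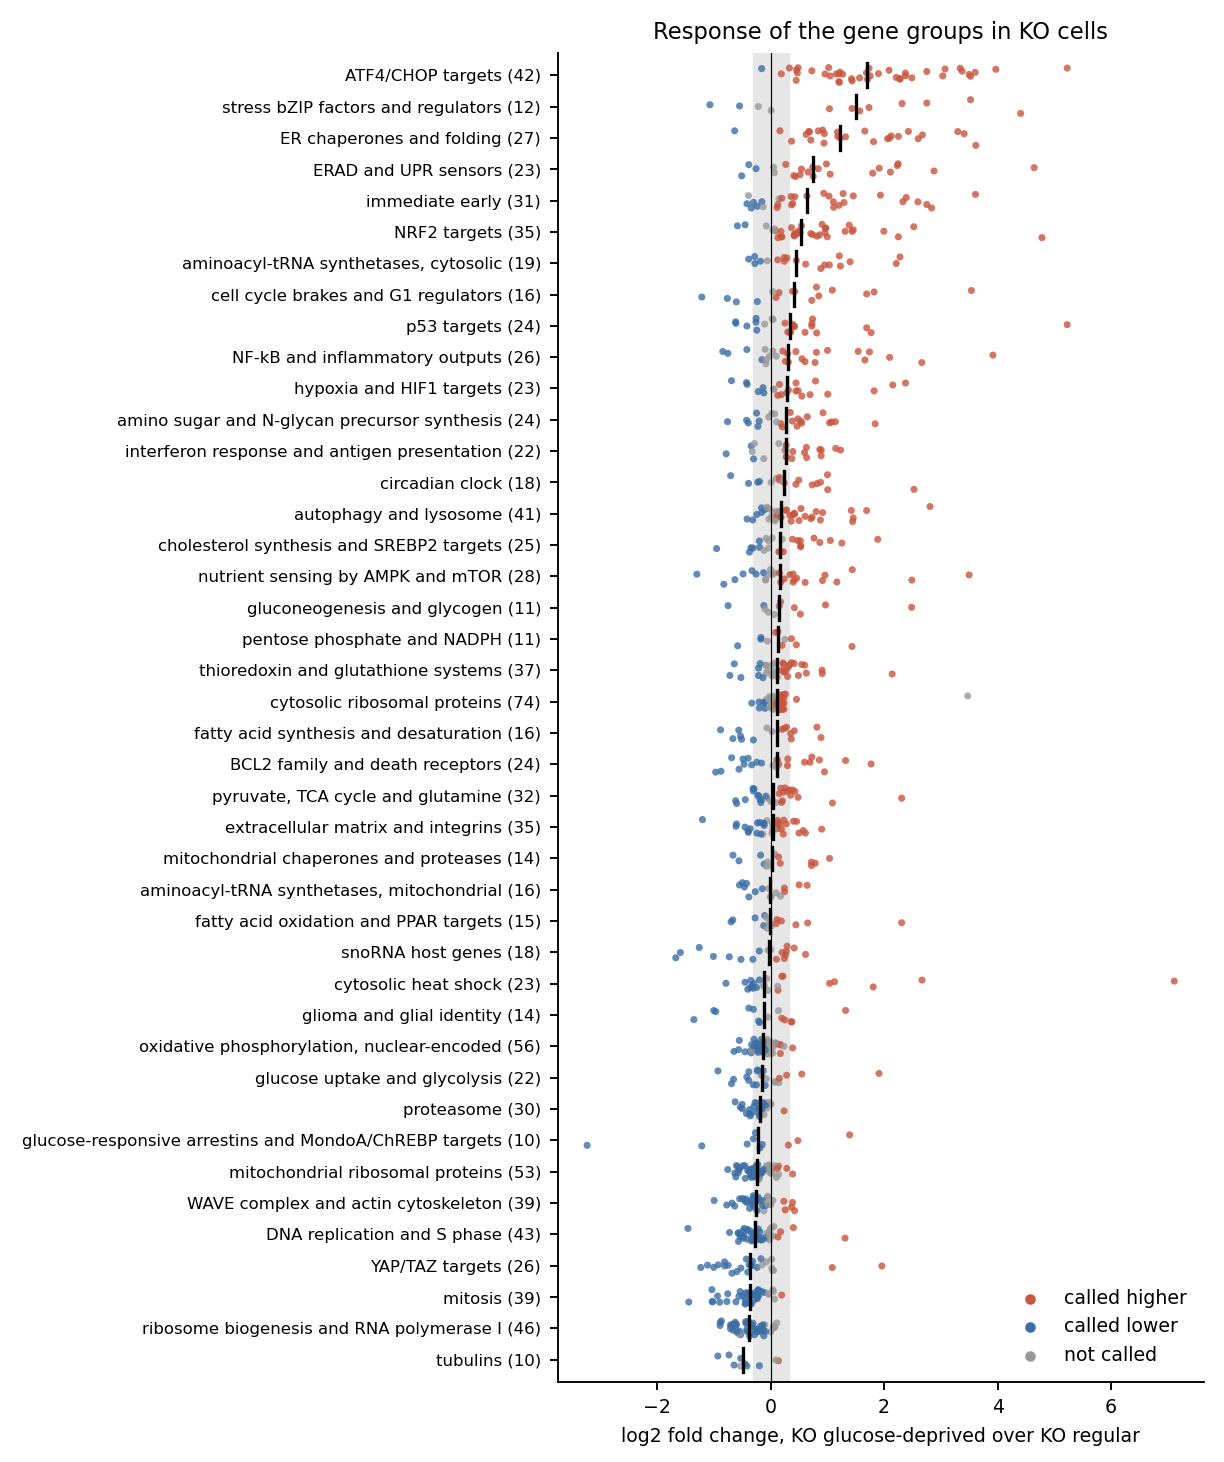
Log2 fold change without glucose in knockout cells, a point for each tested gene of each group (number in brackets), in red or blue where called higher or lower; black bars are medians and the grey band spans the quartiles over all genes. ATF4 and CHOP targets (1.70), stress bZIP factors (1.5) and ER chaperones (1.23) have the highest medians; tubulins (-0.49) and ribosome biogenesis (-0.38) the lowest.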

How the data were processed

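RNA was extracted with TRIzol and made into libraries with SMART-Seq and Nextera XT kits, which do not mark strand, per the labels' protocols. The authors used HISAT2, edgeR and the GRCh38 genome, per the submitters' processing notes; versions and the counting tool are not given in the sources used here. The authors deposited log2 CPM values for 13730 genes, 82 without a symbol. Whole reads could be recovered from them for 100% of values within a tolerance of 0.05, and CPM values in the text undo the log2 and the offset of 0.023 CPM in it.

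Genes averaging a log2 CPM of 0 or more over the 8 libraries, 13057 in all, entered limma 3.58.1 (R 4.3.3), with a linear model of the 4 groups and a variance trend (4 residual and 6.29 prior degrees of freedom). P-values are two-sided and Benjamini-Hochberg adjusted over all genes tested, and calls required an adjusted p under 0.05. The knockout and EV comparisons share no libraries, but all 8 libraries set the estimate of spread. Libraries of a group differed beyond sampling noise, with a chi-square per gene of 4.06 to 18.5, and were kept as 2 each. The members and gene lists were chosen with earlier results of these data known, and some genes are in several lists. Genes named are a panel, the 15 largest rises and falls, up to 4 called members of each list, members that went against their list, and the largest differences between responses; any other is said to be chosen after its values were seen, apart from genes with the ER stress element. Promoter windows are RefSeq's for GRCh38.p14 and exons are from GENCODE release 29. The fit was run on simulated data with the same dispersion for every gene and no library effect linked to GC content. It therefore does not give the error rate in these libraries. Alternatives changed the filter, pseudocount, variance trend, scaling and libraries.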

Additional observations from a re-analysis of the deposited data

Results flagged for a closer look

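The response to lack of glucose differed between knockout and EV cells in 40 of the genes named by the naming rule. The test was the interaction of limma's linear model, and values below are knockout minus EV on the log2 scale. Genes named outside that rule are not counted. Among these, ALG12, named for its ER stress element, also differed, by -0.31 (adjusted p = 0.0172). Its fits with a library left out are not given here. In 25 of the 40 genes the difference was called with any 1 of the 8 libraries left out. The higher knockout responses among these were those of the chaperones HSPA6 (2.24), DNAJB1 (1.84), HSPH1 (1.63), BAG3 (1.32) and HSPD1 (0.45). The signalling genes ID2 (2.09), FOS (1.98), RGS2 (1.5), DUSP1 (1.44), GADD45B (0.67), NFKBIZ (0.67) and ATF3 (0.45) followed. PDK4 (0.99), MXD1 (0.68), DDIT4 (0.67) and XBP1 (0.33) completed this side. Lower knockout responses were those of NMRAL2P (-2.55), SLC7A11 (-1.44), TRIM16L (-0.92), OSGIN1 (-0.85), TRIM16 (-0.68), TXNRD1 (-0.39), PLK1 (-0.42), CCN1 (-0.40) and AURKA (-0.34).

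The other 15 differences kept their sign but were not called in at least 1 of the fits with a library left out. For NFIL3 this held whichever of the 8 libraries was left out. AARS1, ID3, IDH1 and SNHG3 lost the call in 6 of the 8 fits. All 15 lost the call without at least 1 EV library, and these 8 lost it in such fits alone: ATF4 (-0.29), CCN2 (-0.31), CCNB1 (-0.34), ID1 (0.90), PCK2 (-0.32), SARS1 (-0.27), SESN2 (0.37) and SOX2 (0.36). A further 7 also lost it without at least 1 knockout library: AARS1 (-0.23), ID3 (0.64), IDH1 (0.29), MAP1LC3B (0.25), NFIL3 (0.29), SNHG3 (-0.26) and WIPI1 (-0.38).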

How the results depend on the processing

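The count of genes called without glucose in knockout cells, 9572, lay between 8382 and 9999 over the alternatives, and between 9041 and 9365 with 1 library left out. The count at 2-fold, 1019, fell to 645 with the filter at a mean log2 CPM of 2 and to 679 with a pseudocount of 1 CPM, which test fewer low genes or shrink their fold changes, and was 991 to 1082 with 1 library left out. The 563 differences between knockout and EV responses became 223 without a variance trend, with 68.2% of them higher against 53.5%, and 1655 with the trend on GC content removed in each library, an alternative chosen after seeing the data; the cause was not tested. With 1 library left out they ranged from 147 to 1579: 1579 and 368 without knockout deprived a and b, 405 and 842 without knockout regular a and b, 176 and 162 without EV deprived a and b, and 147 and 183 without EV regular a and b. Of single-gene fold changes in knockout cells, 3939 repeats kept their direction and call, 16 lost the call, 4 gained it and 1 reversed: IER5L, at 0.43 and not called, was -0.16 without knockout deprived library b. For the called interaction estimates of genes that the naming rule takes, 637 repeats kept direction and call. Another 140 kept the direction but lost the call. These repeats cover the other alternatives as well as the fits with 1 library left out. Counts over the gene groups stayed within 1.5 times in 3915 repeats and moved further in 403. limma-voom on reads recovered from the table was also added after seeing the data and gave 9604 genes. A fit of the 4 knockout libraries alone gave 8932 genes against 9572. edgeR and DESeq2, planned for raw counts, were not run, since the deposited unit is log2 CPM. No paired analysis was possible because the columns carry no replicate numbers. Depth did not limit most of the named genes. The results are limited by the 2 libraries per group and, in knockout cells, by GC-linked differences between them. The unknown number of clones and cultures and the reading of GlcN as lack of glucose limit them too.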
